A study of Mus musculus with 4 samples.

Results

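Transcript levels of 8 genes of the glucocorticoid response were described across the cell classes of mouse lung in 4 single-cell libraries. The genes are Nr3c1, Fkbp5, Tsc22d3, Sgk1, Ddit4, Klf9, Zbtb16 and Csrnp1, and they were chosen by symbol, with earlier results of these data known. They are 8 of the 30028 genes in the deposited count tables. Because the choice used these values, the levels and ratios of the 8 genes are given as a description, with no test. The libraries came from 11-week-old mice, and each library pooled the lung cells of 5 mice. The group NW held wild-type mice kept in normoxia, and NK held FUNDC1 knockout mice kept in normoxia. The groups HSW (wild type) and HSK (FUNDC1 knockout) were kept in hypoxia and given SU5416, which blocks VEGF receptors, in 3 weekly doses, a combination called HySu that is used to model pulmonary hypertension. The normoxia groups received the vehicle of SU5416. FUNDC1 is a receptor of the outer mitochondrial membrane that takes part in the removal of mitochondria by autophagy. The series title speaks of endothelial deficiency, but the sample labels leave unsaid where the deletion was made. Each group is 1 library, so animal, pool, capture and treatment cannot be told apart, and no p-value was computed.

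Glucocorticoids such as corticosterone, the main one in mice, enter the cell and bind the glucocorticoid receptor, which is held in the cytoplasm by a chaperone complex containing Hsp90. The bound receptor moves to the nucleus and binds DNA as a dimer, at pairs of a short half-site that face each other. It then raises the transcription of target genes, among them feedback inhibitors of its own action, and lowers that of many inflammatory genes. In the lung, glucocorticoids restrain macrophages and other immune cells and promote the maturation of alveolar type 2 cells, which make surfactant.

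The promoters of 3 of the genes are shown because they hold the letters of the receptor's half-site, AGAACA, read on either strand (TGTTCT on the other strand). The windows run from 250 bases before to 50 bases after a RefSeq start site on GRCm38.p6, 300 bases in all, and are printed 5′ to 3′ on the gene's strand. RefSeq windows were at hand for 6 of the 8 genes, 16 windows in all, with several start sites for Sgk1, Tsc22d3 and Csrnp1. Capitals mark the half-sites. In the Sgk1 window (chr10:21993640-21993939, plus strand) the half-sites start at positions -242, -189 and -180 from the start site. In the Tsc22d3 window (chrX:140600473-140600772, minus strand) the half-site starts at -185. In the Csrnp1 window (chr9:119984394-119984693, minus strand) it starts at -52.
Sgk1: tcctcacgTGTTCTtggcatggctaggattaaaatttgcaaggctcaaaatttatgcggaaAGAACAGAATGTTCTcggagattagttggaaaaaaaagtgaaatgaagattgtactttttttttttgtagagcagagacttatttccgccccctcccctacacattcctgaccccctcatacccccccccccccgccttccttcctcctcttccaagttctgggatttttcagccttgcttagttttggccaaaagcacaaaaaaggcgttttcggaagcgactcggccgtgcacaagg
Tsc22d3: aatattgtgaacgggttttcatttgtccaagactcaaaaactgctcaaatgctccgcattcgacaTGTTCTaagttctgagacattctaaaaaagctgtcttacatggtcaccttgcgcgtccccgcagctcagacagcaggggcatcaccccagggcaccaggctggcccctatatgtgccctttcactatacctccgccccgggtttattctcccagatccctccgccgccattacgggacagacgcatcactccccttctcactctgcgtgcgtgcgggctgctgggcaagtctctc
Csrnp1: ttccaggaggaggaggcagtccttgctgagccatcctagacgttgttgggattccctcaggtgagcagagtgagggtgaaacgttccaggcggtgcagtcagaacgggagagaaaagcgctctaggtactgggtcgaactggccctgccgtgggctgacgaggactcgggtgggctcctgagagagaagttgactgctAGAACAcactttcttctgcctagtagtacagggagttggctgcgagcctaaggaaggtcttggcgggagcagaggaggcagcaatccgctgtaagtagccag
The capitals from -189 in the Sgk1 window spell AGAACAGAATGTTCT, 2 half-sites facing each other across 3 bases. This full motif, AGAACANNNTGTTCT, was found in 3 of the 32851 promoter windows of the genome (0.00913%), and the Sgk1 window was 1 of the 3. A half-site alone was common: 6233 windows (19%) held one, against 5 of the 16 windows of the 8 genes (3 of 6 for Sgk1, 1 of 3 for Tsc22d3 and 1 of 4 for Csrnp1), where windows of 1 gene can overlap. The windows of Ddit4, Fkbp5 and Klf9 held neither motif. These matches are letters in a window and say nothing of binding, and the receptor is also known to act from sites far from promoters.

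The tables held 4128 to 9164 cells per library, with 3182 to 4726 UMIs (unique molecules) in the smallest cell of each. Cells carrying the transcripts of 2 lineages made up 36.6% of NW, 42.7% of NK, 24.1% of HSW and 17.4% of HSK and were removed, which left 4853, 5254, 3824 and 3410 cells. Their median depth was 6188, 5234.5, 7070 and 7858.5 UMIs. Between 95 and 155 cell barcodes of a library also occurred in another library. Levels are given as UMIs of a gene per 1000000 UMIs of the cells (CPM). Fundc1 stood at 43.2 CPM in NW and 38.6 in HSW, against 0.922 in NK and 0.205 in HSK, and it was low in every class of both knockout libraries, alveolar macrophages and type 2 cells included. Surfactant transcripts outside type 2 cells differed between libraries: in alveolar macrophages their summed level was 2268 CPM in NW, 2812 in NK, then 1738 in HSW and 3252 in HSK. A list of 17 immediate early and dissociation genes summed to 7970, 8123, 6377 and 5592 CPM in the same cells. The part of these differences in the results was not tested.

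Cell classes were named from marker genes, so each name stands for cells with that marker profile ("alveolar macrophage-like", and so on). The classes with at least 50 cells in every library were alveolar macrophages, interstitial macrophages, classical monocytes, fibroblasts, vascular endothelial cells and alveolar type 2 cells. Endothelial cells numbered 52 in NW, 132 in NK, then 257 in HSW and 113 in HSK, so endothelial values of NW rest on few cells. When only the cells called by a doublet caller were removed, the endothelial cluster held 229, 444, 510 and 210 cells. The removal of mixed cells thus left a smaller part of this class in the normoxia libraries than in the HySu libraries. Only some of the endothelial ratios below are given under both settings. A level is the UMIs of a gene summed over a class, as CPM of all UMIs of that class. Its error is an exact Poisson 95% interval, and that of a ratio an exact conditional binomial (Clopper-Pearson) 95% interval, both of which cover counting error only and not the spread between mice. Levels are compared between classes and libraries for 1 gene at a time and not between genes. A pair of gene and class was called higher or lower where the 2 levels differed at least 2-fold, with at least 30 UMIs over both libraries.

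**Figure D1:**
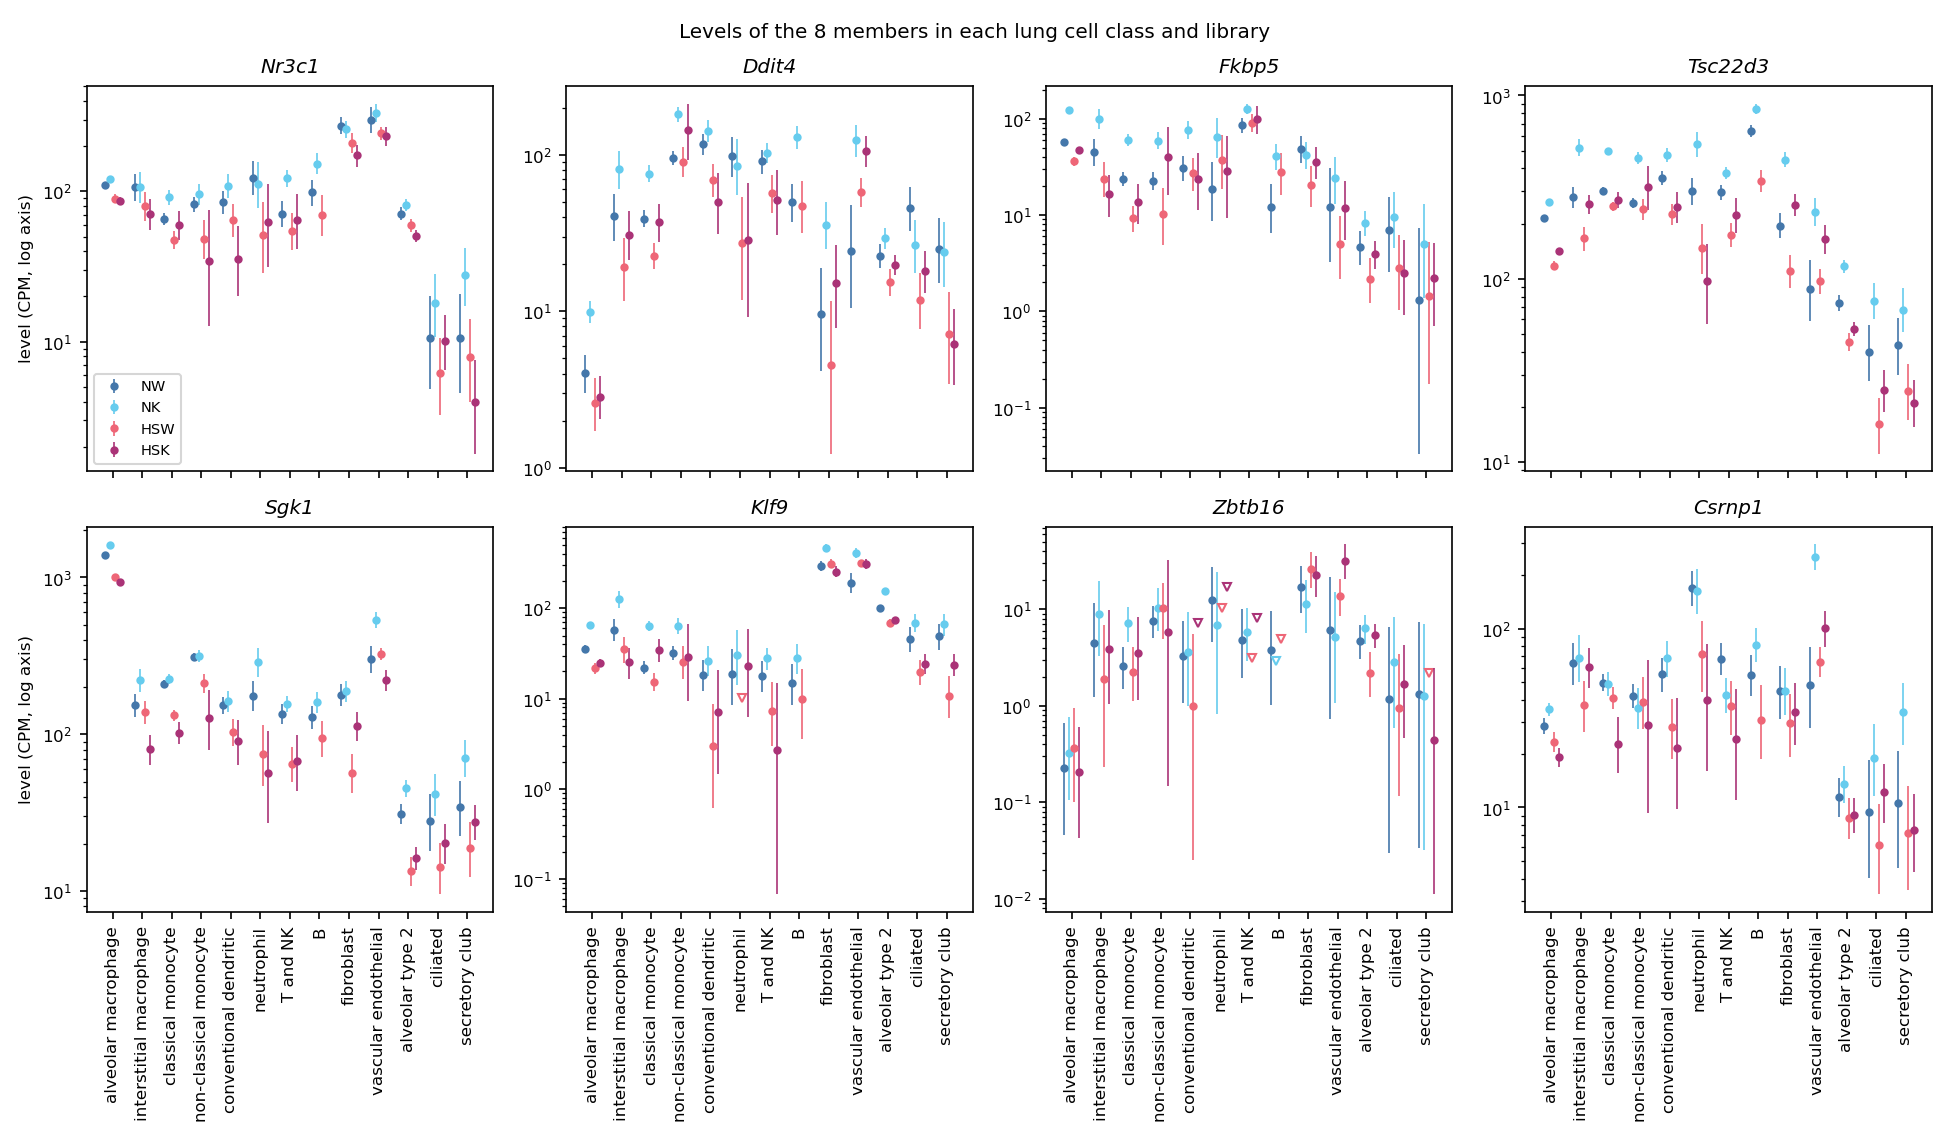
Levels of the 8 genes (CPM, log axis) in the cell classes, with 1 point per library and bars for the exact Poisson 95% interval of counting. The NK point lies above the other 3 in most classes for Fkbp5, Klf9 and Tsc22d3, and Nr3c1 is highest in fibroblasts and endothelial cells in every library. Open triangles stand for a level of 0 and are drawn at the level that 3 UMIs would give.

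Nr3c1, on chromosome 18 (39410545 to 39519421, minus strand, GRCm38, GENCODE vM21), encodes the glucocorticoid receptor itself. Its levels in endothelial cells were 299 CPM in NW, 333 in NK, then 243 in HSW and 232 in HSK. Fibroblasts had 273, 259, 210 and 173 CPM, and the intervals of these 2 classes overlapped in every library. Both stood above alveolar macrophages (109, 121, 89.4 and 86.1 CPM) beyond the counting intervals in all 4 libraries. From there down to non-classical monocytes, neighbouring classes differed beyond their intervals in at most 1 library. Club cells (3.95 to 27.7 CPM) and ciliated cells (6.15 to 18 CPM) were lowest, and the non-classical monocytes ranked just above them exceeded club cells in all 4 libraries. The NK to NW ratios of the receptor gene ran from 0.909 to 1.73 over 11 classes, and none reached 2-fold. They were above 1 in 8 classes, beside 56.6% of the pairs of all genes and classes. The interval lay above 1 in 4 classes and below 1 in 0. T and NK lymphocytes had 70.6 CPM in NW and 122 in NK, and B cells 98.2 and 153 CPM. The HSW to NW ratios of Nr3c1 ran from 0.59 to 0.833 over 10 classes, where 28.9% of the pairs of all genes and classes were above 1. Relative to the median of all genes of a class, the median log2 difference of Nr3c1 was -0.06, and it lay above that median in 1 of 10 classes. With TMM scaling its ratios ran from 0.686 to 1.14, with type 2 cells above 1.

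Fkbp5, on chromosome 17 (28399094 to 28517527, minus strand), encodes a co-chaperone that binds the Hsp90 complex and lowers the receptor's affinity for hormone, a short feedback loop. In alveolar macrophages it had 57.4 CPM in NW (768 UMIs), 123 in NK (1889 UMIs), then 36.1 in HSW and 47.4 in HSK. Interstitial macrophages had 44.8, 100.3, 23.8 and 16.4 CPM, and classical monocytes 23.8, 60.6, 9.22 and 13.5 CPM. NK was the highest library in each of these 3 classes, and its intervals overlapped none of the others. The NK to NW ratio was 2.14 (95% interval 1.97 to 2.34) in alveolar macrophages, 2.24 (1.49 to 3.40) in interstitial macrophages and 2.55 (2.06 to 3.16) in classical monocytes. It was 2.6 (1.93 to 3.51) in non-classical monocytes, 2.52 (1.74 to 3.67) in conventional dendritic cells and 3.34 (1.76 to 6.78) in B cells, where NW held 13 UMIs. Fibroblasts went the other way within counting error, with 48.2 CPM in NW and 41.9 in NK, a ratio of 0.870 (0.549 to 1.38). T and NK lymphocytes had the highest level of the ranked classes, with 85.8, 127, 91.2 and 99.6 CPM, above alveolar macrophages beyond the intervals in 3 of 4 libraries. The alveolar macrophage ratio of NK to NW was 1.79 when cells were thinned to 1 number of UMIs and 1.96 as the mean of the CPM of each cell, so its place past 2-fold depends on these choices.

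Tsc22d3, on chromosome X (140539528 to 140600659, minus strand), encodes GILZ, a leucine zipper protein that mediates anti-inflammatory effects of glucocorticoids. In fibroblasts it had 195 CPM in NW (162 UMIs), 446 in NK (436 UMIs), then 110 in HSW (97 UMIs) and 254 in HSK (201 UMIs). Both knockout libraries were above the wild-type library of the same condition, with ratios of 2.28 (1.90 to 2.75) in normoxia and 2.31 (1.80 to 2.97) under HySu. Endothelial cells had 87.7, 232, 97.0 and 164 CPM, again with the knockout library above its wild-type library. The NK to NW ratio there was 2.64 (1.76 to 4.10), or 1.58 when only the doublet caller's cells were removed. Classical monocytes (303, 495, 249 and 268 CPM), conventional dendritic cells and non-classical monocytes had the highest levels among the ranked classes, with neighbours apart in at most 1 library. B cells, with too few cells in HSK to be ranked, had 637 CPM in NW, 846 in NK and 341 in HSW. Tsc22d3 was higher in NK than in NW in all 11 classes, with ratios of 1.23 to 2.64 and every interval above 1.

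Sgk1, on chromosome 10 (21882184 to 21999903, plus strand), encodes a kinase that regulates ion channels, the epithelial sodium channel among them, and is induced by glucocorticoids and mineralocorticoids. Alveolar macrophages had by far its highest level, 1391 CPM in NW, 1610 in NK, then 1002 in HSW and 931 in HSK. Endothelial cells came next with 302, 537, 325 and 223 CPM, below alveolar macrophages beyond the intervals in all 4 libraries. Type 2 cells (31.2, 45.3, 13.4 and 16.2 CPM) and ciliated cells were lowest and could not be ordered in any library. Its NK to NW ratio lay between 1.02 and 1.78 in the 11 classes, below 2-fold in each, and the interval lay above 1 in 5 of them. With TMM scaling conventional dendritic cells (0.978) and non-classical monocytes (0.949) were below 1. Fibroblasts had 179, 188, 56.7 and 112 CPM, with the HySu libraries below both normoxia libraries. The HSW to NW ratio of 0.316 (0.225 to 0.438) there was the lowest for Sgk1, and it was 0.611 when only the doublet caller's cells were removed.

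Ddit4, on chromosome 10 (59949669 to 59951834, minus strand), encodes REDD1, an inhibitor of the mTORC1 kinase complex that is also induced by hypoxia. In endothelial cells it had 24.2 CPM in NW (8 UMIs), 124 in NK (72 UMIs), then 57.8 in HSW (93 UMIs) and 106 in HSK (80 UMIs). NW was the lowest library and both knockout libraries were above their wild-type library. The NK to NW ratio was 5.11 (2.46 to 12.3) and the HSW to NW ratio 2.39 (1.16 to 5.70), both over the 8 UMIs of NW. With only the doublet caller's cells removed these 2 ratios were 2.15 and 1.02. Fibroblasts had 9.63, 35.8, 4.54 and 15.2 CPM, with 8, 35, 4 and 12 UMIs, and the NK to NW ratio was 3.71 (1.69 to 9.27). Alveolar macrophages had the lowest level of all ranked classes, with 4.03, 9.90, 2.58 and 2.86 CPM, and NK was 2.45 times NW (1.79 to 3.41). In B cells the ratio was 2.62 (1.89 to 3.67). Interstitial macrophages, with 40.3, 80.9, 19.1 and 30.9 CPM, lay at the 2-fold limit (2.00, 1.29 to 3.15), and the ratio was 4.38 at a finer clustering and 13.1 with only the doublet caller's cells removed. Non-classical monocytes had the highest mean over the 4 libraries, with 95.9, 181, 90.4 and 144 CPM, but conventional dendritic cells (116 CPM) and neutrophils (98.2 CPM) were above them in NW.

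Klf9, on chromosome 19 (23141226 to 23168134, plus strand), encodes a Krüppel-like zinc finger transcription factor and is a direct target of the receptor in many tissues. Fibroblasts had 295 CPM in NW, 469 in NK, then 313 in HSW and 255 in HSK, and endothelial cells had 190, 414, 316 and 311 CPM. These classes differed from each other beyond their intervals in 1 of 4 libraries, and endothelial cells exceeded type 2 cells (100.2, 155, 69.6 and 73.8 CPM) in all 4. The myeloid levels were lower: classical monocytes had 22.0, 63.9, 15.4 and 34.1 CPM and interstitial macrophages 58.3, 127, 35.3 and 25.1 CPM. NK was the highest library in all 5 of these classes. The NK to NW ratio was 2.91 (2.35 to 3.62) in classical monocytes, 2.18 (1.53 to 3.15) in interstitial macrophages and 2.17 (1.64 to 2.91) in endothelial cells. Over the 10 classes with enough UMIs it ran from 1.44 to 2.91, and the interval lay above 1 in 7.

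Csrnp1, on chromosome 9 (119971163 to 119984658, minus strand), encodes a nuclear protein that binds DNA and can activate transcription. In endothelial cells it had 48.4 CPM in NW (16 UMIs), 252 in NK (147 UMIs), then 65.3 in HSW (105 UMIs) and 101 in HSK (76 UMIs). NK stood above the other 3 libraries, and the NK to NW ratio was 5.22 (3.11 to 9.37), the largest for any pair of the 8 genes with a class. It rests on 52 endothelial cells in NW and is not given here with only the doublet caller's cells removed. In the other classes the NK to NW ratios of Csrnp1 ran from 0.627 in T and NK lymphocytes to 1.47 in B cells. Neutrophils had 169, 163, 71.8 and 39.8 CPM, above endothelial cells beyond the intervals in NW, and the intervals of these classes overlapped in the other 3 libraries. Haemoglobin transcripts, which belong to red cells, also differed in endothelial cells: 4 haemoglobin genes summed to 11762 CPM in NW, 118 in NK, then 5543 in HSW and 3292 in HSK. Leaving out haemoglobin, mitochondrial and ribosomal genes from the totals kept every 2-fold ratio of the 8 genes inside its counting interval. The sum of the immediate early and dissociation list was nearly level in these cells, at 7745, 7567, 7142 and 7868 CPM, but its 17 genes were not all level. In NK against NW and in HSK against HSW, 0 passed 2-fold. In HSW against NW and in HSK against NK, 2 were higher and 1 lower each. The median log2 ratio of the list in HSK against NK was 0.34, beside -0.19 for all genes.

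Zbtb16, on chromosome 9 (48654297 to 48836222, minus strand), encodes PLZF, a zinc finger repressor that also directs the development of innate-like lymphocytes, and it was sparse in every class. Fibroblasts had 16.9, 11.2, 26.1 and 22.7 CPM in NW, NK, HSW and HSK, and endothelial cells 6.05, 5.15, 13.7 and 31.8 CPM, from 2, 3, 22 and 24 UMIs. The HySu libraries were the higher ones in both classes, but the endothelial levels in normoxia rest on 2 and 3 UMIs. The HSW to NW interval of Zbtb16 lay above 1 in 0 of the 3 classes with enough UMIs, fibroblasts among them. No neighbouring pair of classes in its order differed beyond the counting intervals in any library. In type 2 cells it had 4.64, 6.32, 2.18 and 5.36 CPM, and the HSK to HSW ratio was 2.46 (1.35 to 4.72). The classical monocyte ratio of NK to NW was 2.80 (1.44 to 5.56), from 17 and 24 UMIs. Alveolar macrophages were at 0.204 to 0.368 CPM, with 3 to 5 UMIs per library.

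The genes with the most similar profile to a member of the 8 were found by Pearson's r of log2(CPM + 1) over 45 class-by-library units, among 6574 genes or, for Zbtb16, 6575. The units share libraries, depth and free RNA, so r is a description. Nr3c1 was most like Pcnp (r = 0.951), Tprgl (0.950) and Sept7 (0.941). Tsc22d3 was most like Dennd4a (0.939), Eif2s3y (0.925) and Tsc22d4 (0.916), the last a gene of the same family. Sgk1 was most like Cpt1a (0.917), Ptpn12 (0.907) and Mfsd5 (0.897). Klf9 was most like Thra (0.893), which encodes a thyroid hormone receptor, followed by Cald1 (0.892) and Nfia (0.880). Csrnp1 was most like Pde4b (0.883), Ddit4 most like Vps37b (0.830) and Zbtb16 most like Oxr1 (0.814). None of the 8 genes was among the 3 nearest of another. Among themselves, Fkbp5 and Tsc22d3 had the highest r (0.789), then Tsc22d3 and Csrnp1 (0.753).

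The comparison of NK with NW asks how the knockout differs from the wild type in normoxia. Of 77 pairs of gene and class with enough UMIs, 18 were at least 2-fold higher in NK and 0 were at least 2-fold lower. Over all genes in the same 11 classes, 3.25% of the pairs were higher and 2.32% lower by the same rule. The 8 genes were chosen with this contrast known, so these counts describe the choice and support nothing. Fkbp5 gave 6 of the 18 pairs, Ddit4 5, Klf9 3, Tsc22d3 2, and Zbtb16 and Csrnp1 1 each. By class, endothelial cells gave 4 (Csrnp1, Ddit4, Tsc22d3 and Klf9), and interstitial macrophages (Ddit4, Fkbp5 and Klf9) and classical monocytes (Klf9, Zbtb16 and Fkbp5) gave 3 each. The ratio was above 1 in 68 of the 77 pairs, or 65 with TMM scaling (56.6% over all genes), with a median log2 ratio of 0.54. The class medians of all genes were 0.01 to 0.11 on the same log2 scale. With every cell thinned to 1 number of UMIs, 11 of the 18 pairs could be compared and 8 of them were past 2-fold. The endothelial pairs were not among those compared, because fewer than 50 endothelial cells of NW and NK were deep enough.

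Other genes of the pathway were taken from 3 lists that were written with earlier results of these data known. The first held other genes known to be induced by glucocorticoids, and of its 268 pairs 23 were at least 2-fold higher and 1 lower in NK, with a median log2 ratio of 0.21. Pik3ip1, an inhibitor of phosphoinositide 3-kinase, was higher in 4 of 8 classes (0.795 to 3.73-fold), Mt2, a metallothionein, in 3 of 9, Errfi1, an inhibitor of the EGF receptor, in 2 of 9, and Klf15, another Krüppel-like factor, in both of the 2 it was measured in (2.15 and 2.95-fold). Per1, a circadian repressor and receptor target, had 15.1 CPM in NW endothelial cells (5 UMIs) and 142 in NK (83 UMIs), a ratio of 9.42 (3.88 to 29.8). This value was picked after it was seen, and the ratios of Per1 in the other classes of this comparison are not given here. Like the endothelial ratios of Csrnp1 and Ddit4, it rests on few UMIs in NW. The receptor machinery (chaperones and coregulators of the receptor) had 1 higher pair and 0 lower of 161, with a median of 0.13. The single pair was Stip1, an Hsp90 co-chaperone, in neutrophils. The list of inflammatory genes that glucocorticoids repress went the other way, with 2 higher and 9 lower pairs of 97 and a median log2 ratio of -0.23. It was above 1 in 20 of the 97 pairs. Il1b, the interleukin-1β gene, had 884 CPM in non-classical monocytes of NW and 482 in NK, a ratio of 0.545 (0.504 to 0.589). In B cells it had 373 and 161 CPM, a ratio of 0.430 (0.357 to 0.517). That was the lowest Il1b ratio of 11 classes and the only 1 past 2-fold, and the highest was 1.09.

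**Figure D2:**
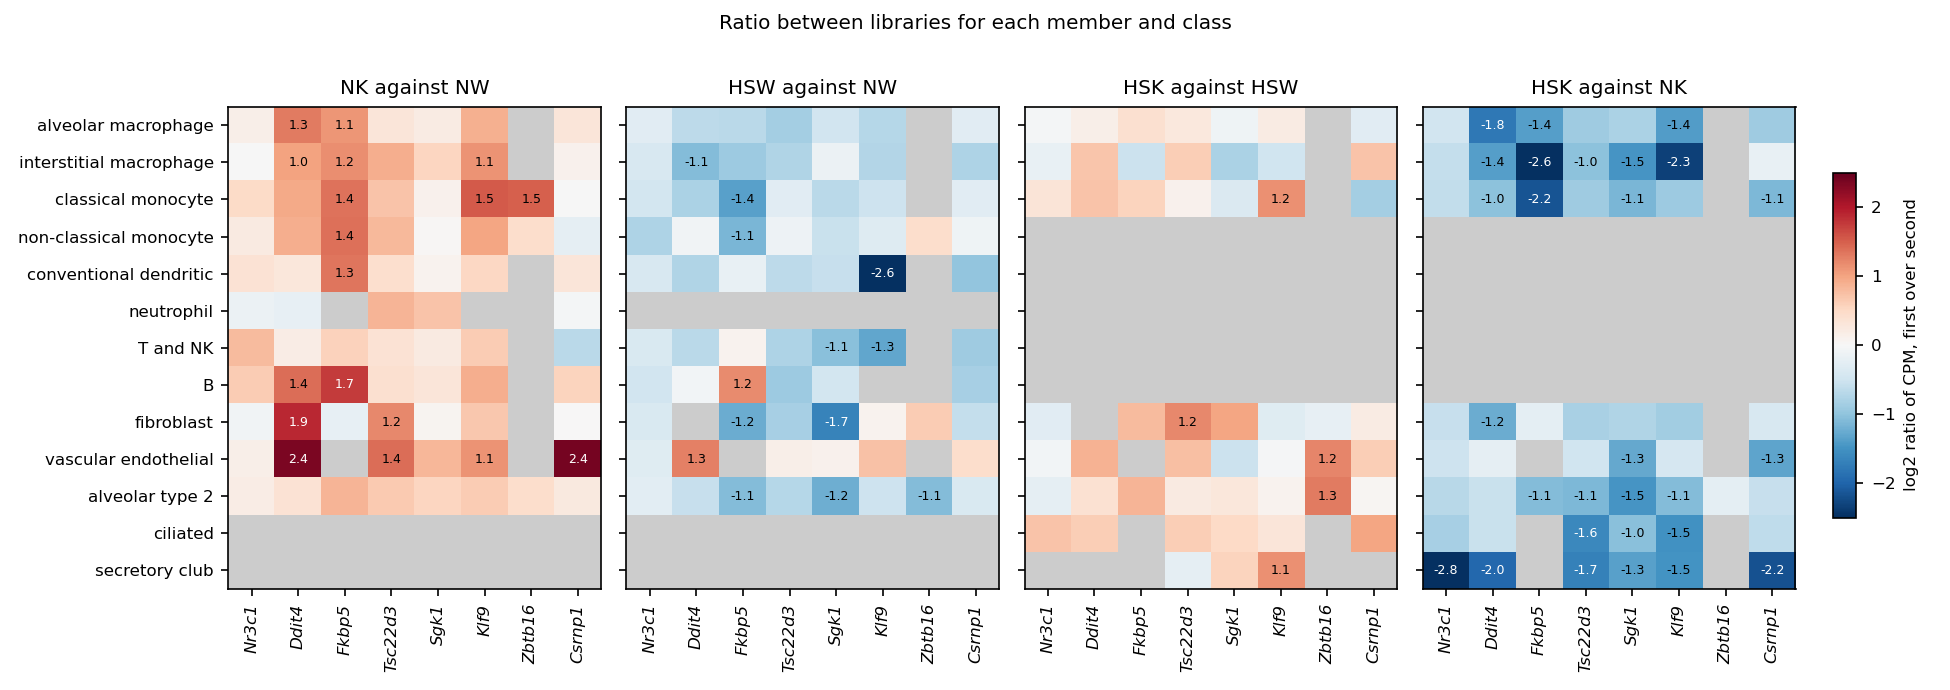
Log2 ratio of the levels of each of the 8 genes (columns) in each class (lines) for the 4 comparisons, with red for higher and blue for lower in the first library, the value printed where it is at least 2-fold, and grey where a class has too few cells or a pair too few UMIs. In NK against NW 68 of 77 pairs lie above 1, and in HSK against NK all 54 lie below 1 (with TMM scaling 65 of 77 lie above and 45 of 54 below), while over all genes 23.4% of the pairs of HSK against NK lay above 1.

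HSW against NW compares HySu with normoxia in the wild type, and it shares the NW library with the comparison above. Of 70 pairs, 2 were at least 2-fold higher and 11 at least 2-fold lower in HSW, against 2.38% and 11.6% over all genes in the same 10 classes. The share of lower pairs was thus near that of all genes. The lower pairs were Fkbp5 in classical monocytes (0.388, 0.272 to 0.543), fibroblasts (0.424), non-classical monocytes (0.451) and type 2 cells (0.471), Sgk1 in fibroblasts, type 2 cells (0.429, 0.330 to 0.556) and T and NK lymphocytes (0.482), Klf9 in conventional dendritic cells (0.164, 0.0320 to 0.532) and T and NK lymphocytes (0.408), Zbtb16 in type 2 cells and Ddit4 in interstitial macrophages (0.473). The 2 higher pairs were Ddit4 in endothelial cells and Fkbp5 in B cells (2.28, 1.04 to 5.10). In endothelial cells Ddit4, Klf9 (1.66, 1.27 to 2.19), Csrnp1 (1.35), Tsc22d3 (1.11) and Sgk1 (1.07) had ratios above 1. All genes also stood higher there, with 46.8% of them above 1, against 16.9 to 31.3% in the other 9 classes. The ratio was above 1 in 10 of the 70 pairs, or 20 with TMM scaling (28.9% over all genes), with a median log2 ratio of -0.55 beside class medians of all genes of -0.46 to -0.09. With TMM scaling, which shifted the log2 ratios of this comparison up by 0.17 to 0.46, 2 pairs were higher and 4 lower. Relative to the median of all genes of the same class, the 8 genes had a median log2 difference of -0.23, and 20 of the 70 pairs lay above that median. The sum of the 17 immediate early and dissociation genes was lower in HSW than in NW in all 6 classes named above, and the part of this in the result was not tested.

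The other lists had medians below 0 in this comparison, as all genes had. Of the other glucocorticoid-induced genes 5 pairs were higher and 42 lower of 243 (median log2 ratio -0.41), of the receptor machinery 0 and 21 of 147 (-0.57), and of the repressed inflammatory genes 3 and 22 of 86 (-0.37). Relative to the median of all genes of the class, the 3 medians were -0.12, -0.25 and -0.08. Per1 and Cebpb, the gene of a bZIP transcription factor, were lower in 6 of 10 classes each. Per1 in alveolar macrophages had 63.2 CPM in NW and 30.0 in HSW, a ratio of 0.475 (0.417 to 0.541). Fkbp4, a co-chaperone that helps the receptor to the nucleus, was lower in 4 classes, and the coactivator Ncoa1 in 3. Circadian clock genes, several of which respond to glucocorticoids, had 1 higher and 19 lower pairs of 53 (-0.64, or -0.29 relative to all genes). A list of hypoxia-induced genes had 0 higher and 6 lower of 63 (9.52%, below the share over all genes), and its median of -0.27 was 0.05 relative to all genes.

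HSK against HSW compares the genotypes under HySu. Of 52 pairs, 5 were at least 2-fold higher and 0 lower in HSK, beside 1.94% and 2.12% over all genes in 8 classes. The 5 were Zbtb16 in type 2 cells and in endothelial cells (2.32, 1.25 to 4.35), Klf9 in classical monocytes (2.22, 1.51 to 3.23) and club cells (2.19, 1.22 to 4.19), and Tsc22d3 in fibroblasts. The ratio was above 1 in 35 of 52 pairs (48.2% over all genes), with a median log2 ratio of 0.28 and class medians of all genes of -0.05 to 0.04. Ddit4 was above 1 in all 6 classes measured, from 1.11 to 1.83, and Tsc22d3 in 7 of 8. Sgk1 was divided, with 4 classes above 1 and 4 below. In fibroblasts its ratio was 1.98 (1.39 to 2.86), and it was 0.580 (0.438 to 0.765) in interstitial macrophages and 0.686 (0.573 to 0.817) in endothelial cells. Of the other induced genes, 11 pairs were higher and 3 lower of 195 (median 0.11). Il1r2, the decoy receptor of interleukin-1, was higher in 2 of 4 classes, and Mt1, a metallothionein, in 2 of 8. Per1 had 0.946 CPM in ciliated cells of HSW (2 UMIs) and 14.7 in HSK (35 UMIs), a ratio of 15.5 (3.99 to 133). This was the only 1 of 8 classes past 2-fold for Per1, and its lowest ratio was 0.740. The receptor machinery had 0 higher and 1 lower pair of 113, which was the coactivator Ep300 in fibroblasts. The repressed inflammatory genes had 4 higher and 3 lower pairs of 65, with a median log2 ratio of 0.13. That median had the same sign as that of the 8 genes here, and the opposite sign to its value of -0.23 in NK against NW.

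HSK against NK compares HySu with normoxia in the knockout, and both libraries also enter the comparisons above. Of 54 pairs, 28 were at least 2-fold lower and 0 higher, and over all genes in the same 8 classes 23.3% were lower and 2.85% higher. The share of all genes that were lower differed by class, from 6.36% in alveolar macrophages to 55.0% in ciliated cells and 67.6% in club cells. The 28 lower pairs included 6 of 6 pairs in club cells and 3 of 6 in ciliated cells. Every one of the 54 ratios was below 1 on the CPM scale (45 with TMM scaling), where 23.4% of all pairs of gene and class were above 1. The 28 comprised Sgk1 in 6 of 8 classes, Klf9 and Ddit4 in 5 of 8 each, Fkbp5 in 4 of 5, Tsc22d3 in 4 of 8, Csrnp1 in 3 of 8 and Nr3c1 in 1 of 8. Interstitial macrophages had the lowest ratios outside club cells, with Fkbp5 at 0.164 (0.0901 to 0.282) and Klf9 at 0.197 (0.122 to 0.309). Nr3c1 passed 2-fold only in club cells, at 0.143 (0.0579 to 0.323), where its NK level of 27.7 CPM and HSK level of 3.95 CPM rest on 22 and 9 UMIs. In club cells 1 secretory gene, Scgb1a1, stood at 545001 CPM in NK and 778361 in HSK, and in ciliated cells at 427185 and 676167, so the levels of all other genes there are shares of a smaller remainder. The median log2 ratio of the 8 genes was -1.03, and the class medians of all genes ran from -1.35 to -0.19. Relative to the median of all genes of the class it was -0.46, with 9 of 54 pairs above. With TMM scaling 9 pairs were lower and 0 higher, and 9 of the 54 ratios were above 1, among them Sgk1 in ciliated and club cells (1.05 and 1.06) and Ddit4 in ciliated cells (1.47).

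In the same comparison the other induced genes had 1 higher and 72 lower pairs of 201 (median log2 ratio -0.76, or -0.27 relative to all genes of the class). The receptor machinery had 0 and 33 of 113 (-0.73, or -0.23 relative to all genes), and the repressed inflammatory genes 3 and 16 of 65 (-0.31, or 0.16 relative to all genes). The lower shares of these 2 lists, 29.2% and 24.6%, were near the 23.3% over all genes. Circadian clock genes had 0 higher and 27 lower pairs of 49 (55.1%), beside 51.9% lower for the 8 genes. The median log2 ratio of the clock list was -1.15, or -0.55 relative to all genes of the class. Per1 was lower in 6 of 8 classes, as was Cebpb, and Errfi1 and Glul, the glutamine synthetase gene, were lower in 5. Of the receptor machinery, the coactivator Crebbp was lower in 7 of 8 classes and Hsp90aa1, an Hsp90 gene, in 5. Hsp90aa1 had 497 CPM in alveolar macrophages of NK and 251 in HSK, a ratio of 0.505 (0.486 to 0.526), and 445 and 192 CPM in type 2 cells, a ratio of 0.431 (0.405 to 0.459).

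Whether the HySu ratio differed between genotypes was described by the ratio of the 2 ratios, (HSK/NK)/(HSW/NW), with an interval from counting error, in the 6 classes with at least 50 cells in every library. In endothelial cells Csrnp1 had a HySu ratio of 1.35 in the wild type and 0.399 in the knockout, and the ratio of ratios was 0.296 (0.163 to 0.536). Ddit4 (0.359), Sgk1 (0.386, 0.290 to 0.513) and Klf9 (0.454) were also below 0.5 in these cells. NW held 52 endothelial cells, with few UMIs of Ddit4 and Csrnp1. All ratios of ratios are given only after the removal of mixed cells. The endothelial ratios of Ddit4 over NW were nearer 1 with only the doublet caller's cells removed. In interstitial macrophages the values were 0.308 (0.148 to 0.639) for Fkbp5, 0.326 for Klf9 and 0.402 for Sgk1, and in alveolar macrophages Ddit4 had 0.451. In each of these pairs HSK lay further below NK than HSW lay below NW, or below NK where HSW was above NW. The highest values were in fibroblasts, 1.99 (0.955 to 4.15) for Fkbp5 and 1.89 (1.26 to 2.85) for Sgk1. The fibroblast HSW to NW ratio of Sgk1, which enters the latter, was also nearer 1 with only the doublet caller's cells removed. The genes were chosen with NK against NW known, and the NK and NW levels enter every ratio of ratios. A high NK level or a low NW level alone lowers it, so these values also describe the choice and support nothing. With 1 library per group these differences have no replicate check.

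**Figure D3:**
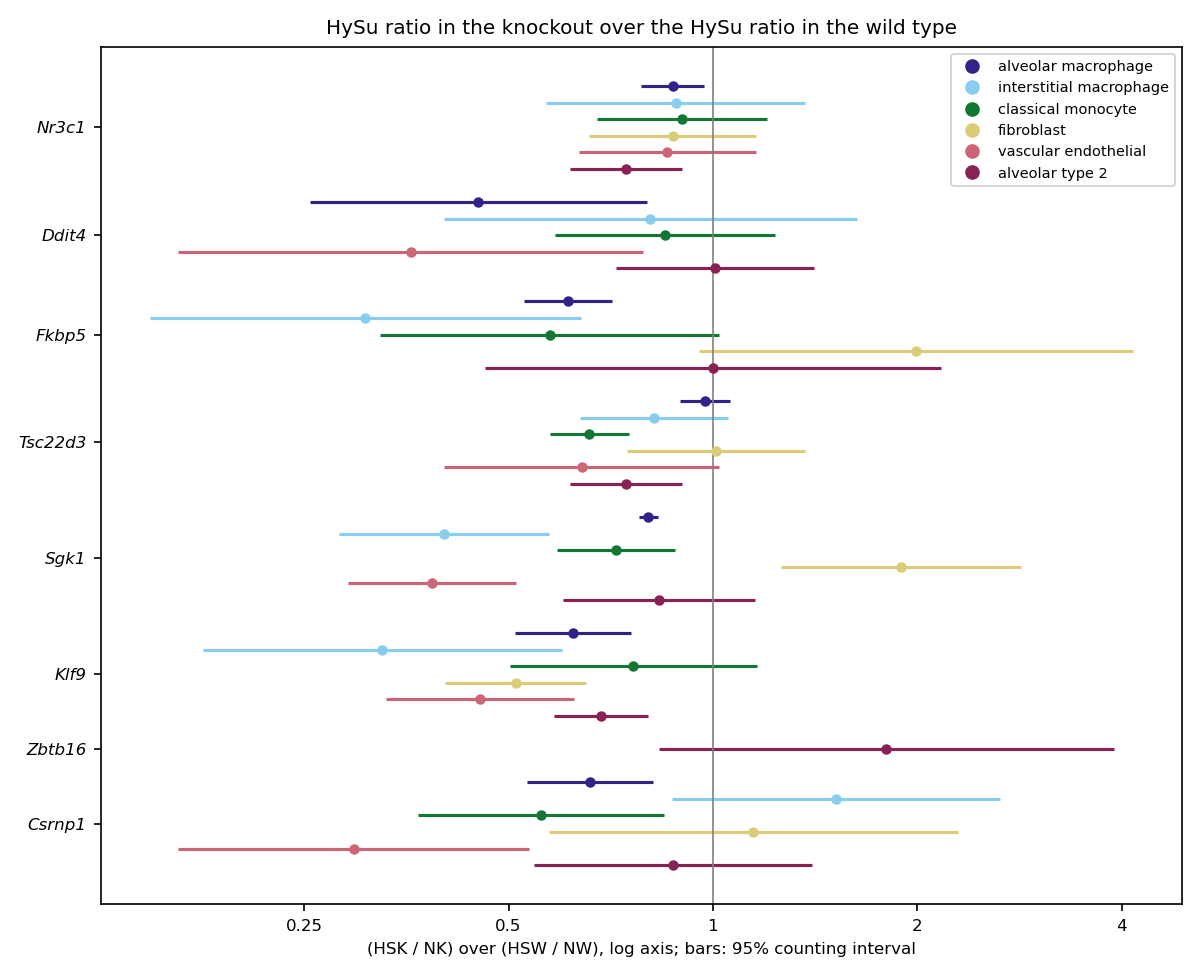
Ratio of the HySu ratio in the knockout to that in the wild type (log axis, with 95% counting intervals) for the 8 genes in the 6 classes with at least 50 cells in every library. Csrnp1, Ddit4, Sgk1 and Klf9 in endothelial cells and Fkbp5, Klf9 and Sgk1 in interstitial macrophages lie below 0.5.

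Alveolar macrophages and type 2 cells each held several clusters, and the levels were compared within them. Alveolar macrophage cluster 1, led by Ear2 and Fabp1, made up 49.2% of the class in NW, 60.6% in NK, then 63.8% in HSW and 66.5% in HSK. Cluster 3, led by Cxcl3 and Gdf15, made up 41.9, 30.5, 32.1 and 27.1%, and cluster 12 held cycling cells. Fkbp5 had 60.7, 117, 39.5 and 49.7 CPM in cluster 1 and 50.8, 137, 30.1 and 41.5 CPM in cluster 3. NK was the highest library in both, with NK to NW ratios of 1.93 and 2.70, and 1.45 in cluster 12. For Klf9 the 3 ratios were 1.88, 1.91 and 2.04, and for Tsc22d3 they were 1.29, 1.26 and 0.983. Sgk1 was among the genes that lead cluster 3, so its higher level there (1648, 2042, 1368 and 1259 CPM, beside 1153, 1405, 803 and 792 in cluster 1) is part of how the cluster was formed. Type 2 cluster 6, led by Sprr1a and Krt8, made up 30.7% of the class in NW and 24.3% in NK, but only 9.86% in HSW and 8.89% in HSK, and the rest was mostly cluster 0.

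**Figure D4:**
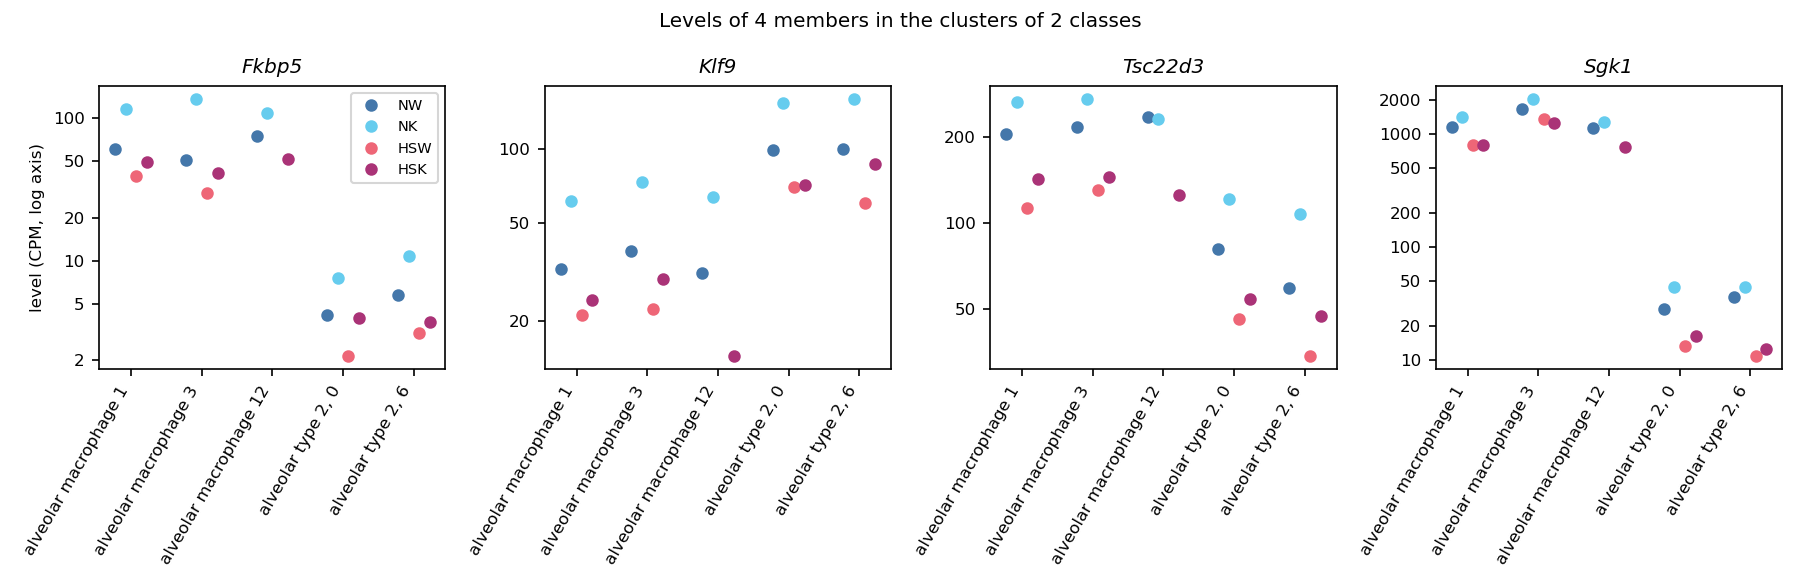
Levels (CPM, log axis) of Fkbp5, Klf9, Tsc22d3 and Sgk1 in the clusters of alveolar macrophages and alveolar type 2 cells, with 1 point per library; HSW had too few cells in alveolar macrophage cluster 12 to be shown. NK is the highest library in every cluster shown for Fkbp5, Klf9 and Sgk1, and for Tsc22d3 in all clusters except alveolar macrophage cluster 12, where NW is slightly higher.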

How the data were processed

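The 4 libraries were made from dissociated mouse lung on a microwell chip with poly(A) capture, per the labels' protocols. The authors deposited 1 table per library of UMI counts per gene and cell, not normalized. Reads were handled with cutadapt 1.17, STAR 2.6.1a, featureCounts 2.0.1 and Scanpy on GRCm38 or mm10, per the submitters' processing notes, which do not give the role of each. The 4 libraries were grouped by their labels, and each group has 1 replicate, a pool of 5 mice. The members and gene lists were chosen with earlier results of these data known.

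Cells with fewer than 200 genes or over 20% mitochondrial UMIs were removed (1 each in NK and HSW). Scanpy 1.11.5 (Python 3.11.15, pandas 2.3.3, numpy 2.4.6) clustered the cells on 2000 variable genes, 40 principal components and 20 neighbours with Leiden at resolution 1 (leidenalg 0.10.2, seed 1). Scrublet at an expected 6% called 4, 1, 8 and 30 cells, too few to have worked, so cells with at least 3 UMIs and over 0.15 of the reference level of a second lineage were removed as mixed. That rule and its lineage genes were set after the clusters were seen and before libraries were compared here, though earlier results of these data were known. Clusters were named where at least 3 markers of a class were found in at least 25% of cells. UMIs were summed per class and library, and intervals came from scipy 1.17.1. Medians of log2 ratios added 0.5 UMI. A count of 0 UMIs allows up to 3 UMIs. The rule for named genes took all 8 members, up to 4 genes of each pathway list and up to 3 of other lists that passed 2-fold in the most classes, and the 3 genes most like each member. Some genes that this rule names are not reported here. Genes outside this rule (Per1 in endothelial and ciliated cells, Il1b, Scgb1a1) were named after their values were seen. The scripts were tested on simulated counts. Alternatives were TMM scaling (edgeR 4.0.16, R 4.3.3), thinned cells, the mean of the CPM of each cell, Leiden resolution 2, removal of Scrublet calls only, totals without mitochondrial, ribosomal and haemoglobin genes, other UMI minimums and a 1.5-fold limit.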

Additional observations from a re-analysis of the deposited data

Results flagged for a closer look

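In 6 pairs of gene and class the effect had opposite directions in the 2 conditions or genotypes, with neither interval over the whole class spanning 1; the difference was not tested, because each group is 1 library. Sgk1 in alveolar macrophages was higher in the knockout in normoxia (NK/NW 1.16) and lower under HySu (HSK/HSW 0.929), a ratio of ratios of 0.803. Within cluster 1 of these cells the Sgk1 ratio of HSK to HSW was 0.986 (0.951 to 1.02), which spans 1, and within cluster 3 it was 0.920 (0.886 to 0.956). Csrnp1 in alveolar macrophages had 1.24 and 0.817, a ratio of 0.660, but its HSK to HSW interval spanned 1 within cluster 1 (0.854, 0.651 to 1.12) and within cluster 3 (0.889, 0.692 to 1.14). Klf9 in fibroblasts had 1.59 and 0.815, a ratio of 0.513. Sgk1 in interstitial macrophages had 1.44 and 0.580, a ratio of 0.402, and in vascular endothelial cells 1.78 and 0.686, a ratio of 0.386. Klf9 in vascular endothelial cells was higher under HySu in the wild type (HSW/NW 1.66) and lower in the knockout (HSK/NK 0.752), a ratio of 0.454. NW held 52 of these cells, and their median log2 ratio of all genes in HSK against NK was -0.19. The endothelial pairs are not given here with TMM scaling or with only the doublet caller's cells removed.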

How the results depend on the processing

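No paired analysis was possible because each group is 1 library, and for the same reason no replicate could be left out. Depth limits Zbtb16 most, which reached 30 UMIs in at most 3 classes of a comparison. Of the pairs called 2-fold, those still past 2-fold were 58 of 62 at Leiden resolution 2, 58 of 64 as the mean of the CPM of each cell, 59 of 64 without mitochondrial, ribosomal and haemoglobin genes, 50 of 62 with only Scrublet calls removed, 32 of 40 with thinned cells and 37 of 64 with TMM scaling. The number of pairs tested differs between settings, and the cause of the other shifts was not tested. The counts below need not hold the same pairs. NK against NW had 18 higher pairs, 10 with thinned cells (8 of them among the 18) and 36 at 1.5-fold, and 0 lower pairs, 1 at 1.5-fold. HSW against NW had 2 higher pairs, 1 with only Scrublet calls removed, 0 with thinned cells, 1 at a minimum of 100 UMIs and 4 at 1.5-fold, and 11 lower pairs, 19 with only Scrublet calls removed, 4 with TMM scaling, 4 at 100 UMIs and 33 at 1.5-fold. HSK against HSW had 5 higher pairs, 3 with only Scrublet calls removed, 2 at 100 UMIs and 19 at 1.5-fold, and 0 lower pairs, 1 with only Scrublet calls removed, 1 at 20 UMIs and 2 at 1.5-fold. HSK against NK had 0 higher pairs, 2 at 20 UMIs, and 28 lower pairs, 49 with only Scrublet calls removed, 9 with TMM scaling and 16 with thinned cells. Among the pairs called 2-fold, the ones to change sign under these alternatives were Sgk1 in ciliated cells (1.05) and in club cells (1.06), for HSK against NK with TMM scaling. Over all pairs tested, TMM scaling put 3 of 77 on the other side of 1 for NK against NW, 10 of 70 for HSW against NW, 0 of 52 for HSK against HSW and 9 of 54 for HSK against NK.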
